A study of Mus musculus with 16 samples.

Results

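The data concern the difference between 2 responses to a cholesterol and cholate diet in mouse liver, that of conditional c-Met knockout (KO) mice and that of wild type (WT) mice. All 16 arrays of the study entered the comparison, 4 in each cell of a 2 by 2 layout of genotype and diet. Every gene with a probe detected on 4 or more arrays was tested, 9265 of 18138 gene symbols. Each array measured liver RNA of 1 sample on an Illumina bead array. Chow WT and chow KO mice received regular chow. High cholesterol WT and high cholesterol KO mice received a diet with 2% cholesterol and 0.5% sodium cholate. Feeding lasted 30 days in all 4 groups, which also shared the 129SV/C57BL/6 strain background. The deletion is described as conditional and in the liver. The promoter that drove it, and the sex and age of the mice, are not given in the sources used here. Samples are not stated to be separate animals, so the p-values measure the spread between these samples.

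c-Met is the receptor tyrosine kinase for hepatocyte growth factor, a signal that drives hepatocyte growth and survival in liver repair. Dietary cholesterol shuts down sterol synthesis and is exported through sterol transporters, while cholate, a primary bile acid, suppresses the liver's own bile acid synthesis and adds a detergent load that brings inflammation and scarring. The interaction compared here is the change with the diet in KO minus the change with the diet in WT, in log2 units. It is negative where a gene rose less, or fell more, in KO, and it equals the KO minus WT difference on the high cholesterol diet minus that on chow.

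Between 10028 and 11952 probes were detected per array. The spread of the background, as the SD of probes never detected, ran from 4.47 to 5.51 intensity units for chow samples and from 6.54 to 8.08 for samples of the high cholesterol diet. High cholesterol WT replicate 3 and high cholesterol KO replicate 3 had the lowest correlations with the other arrays of their group, 0.976 and 0.977. The liver identity of the tissue was plain: 13 of 14 hepatocyte markers were tested, and their summed signal ranged from 137409 to 172649 intensity units over all arrays. Met itself was near background, detected on 2 of 4 chow WT, 3 of 4 chow KO, 1 of 4 high cholesterol WT and 1 of 4 high cholesterol KO arrays. Its interaction was -0.43 ± 0.27 (SE, n = 4 arrays per group, limma), and the sources used here do not place its probe within or outside the deletion, so Met did not check the genotype labels.

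Most of the diet response was common to the genotypes. Across all 9265 genes, WT and KO responses, which share no arrays, correlated with Pearson's r = 0.753, a description across genes that are not independent replicates. The responses had an SD of 0.56 in each genotype, and their difference an SD of 0.39. In WT 1265 genes (13.7%) rose and 1089 (11.8%) fell with the diet at an adjusted p of 0.05 (limma, Benjamini-Hochberg). In KO 1411 (15.2%) rose and 1148 (12.4%) fell; with median scaling in place of quantile normalization the KO split was 1016 and 1347. Of the 1377 genes called in both, 1376 moved the same way, with median sizes of 0.76 in WT and 0.80 in KO.

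Only 1 gene, Smpdl3b, passed the interaction test at an adjusted p of 0.05, which is 0.0108% of the genes tested. The next smallest adjusted p was 0.0736, for Cyp2b9, and 29 genes had an adjusted p under 0.25. At an unadjusted p under 0.05 there were 967 genes, 512 (5.53%) with a positive and 455 (4.91%) with a negative interaction. With median scaling these were 317 and 446. An interaction over 1 log2 unit in size occurred for 185 genes and one over 2 for 15. The SE of the interaction had a median of 0.25, against 0.18 for a diet response in 1 genotype. With 4 arrays per group, differences close to their SE were not detectable, and some of several times their SE did not pass. The interaction of Cyp2b9, 4.77 log2 units, was among the latter.

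A call in 1 genotype and not in the other is not a test of a different response. Of 977 genes called in WT only, 289 had an unadjusted interaction p under 0.05. Of 1182 called in KO only, 306 did, and of all genes 10.4%. None of these 289 and 306 genes passed after adjustment. A call in only 1 genotype already selects for a difference on the same arrays, so these counts are no separate support for one. Genes called in WT only had a median response size of 0.63 in WT and 0.27 in KO. The sign was the same in KO for 849 of the 977, against 75.7% of all genes. The plot of the diet response of each gene shows this as a single cloud along the diagonal with a few genes far from it.

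**Figure D1:**
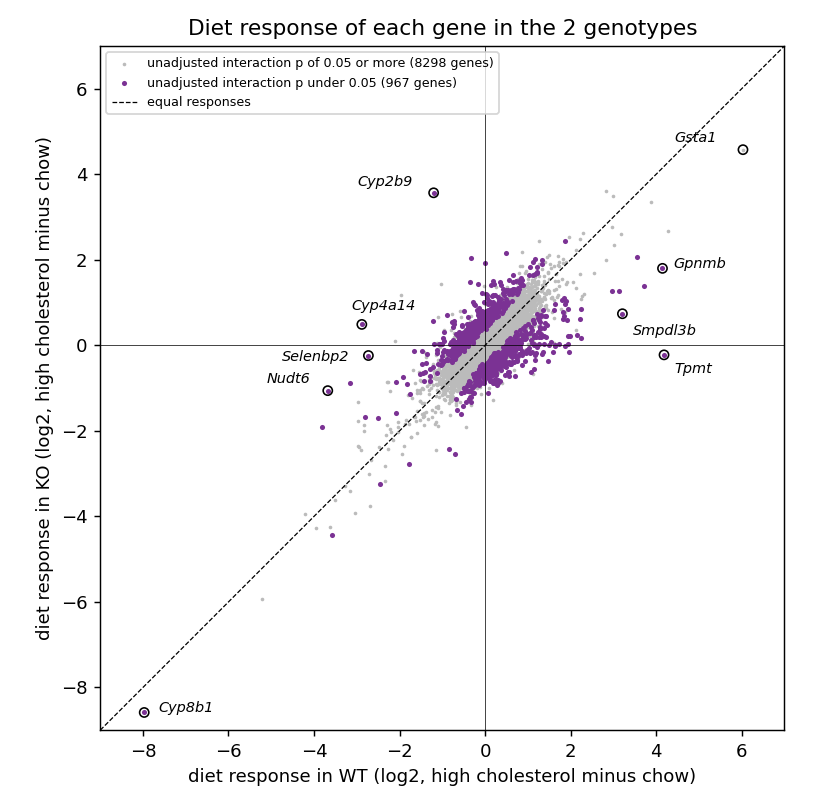
Diet response (log2 signal, high cholesterol minus chow) of 9265 genes in WT (horizontal axis) and KO (vertical axis), each point 1 gene, with the 967 genes at an unadjusted interaction p under 0.05 in purple and the line of equal responses dashed. Smpdl3b, Gpnmb and Tpmt lie below the line and Cyp2b9, Cyp4a14, Nudt6 and Selenbp2 above it, while Cyp8b1 lies close to it at the lower left.

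Smpdl3b encodes a phosphodiesterase anchored to the cell surface that acts on sphingolipids and restrains inflammatory signalling in macrophages. Its log2 signal was 5.36, 4.80, 5.14 and 5.02 on the chow WT arrays and 5.28, 5.11, 5.29 and 5.01 on the chow KO arrays. On the high cholesterol diet it was 8.25, 7.91, 9.07 and 7.93 in WT and 5.92, 6.65, 5.49 and 5.59 in KO. The chow groups overlapped, every high cholesterol array exceeded every chow array, and the highest KO array on that diet lay below the lowest WT array. Smpdl3b rose 9.26-fold in WT (3.21 ± 0.25, adjusted p = 2.45e-07) and 1.67-fold in KO (0.74 ± 0.25, adjusted p = 0.0393). The interaction was -2.47 ± 0.36, with a 95% interval from -3.23 to -1.71 (limma adjusted p = 0.0222). Without any 1 array it stayed between -2.72 and -2.21. Leaving out any 1 of 8 arrays ended the call, with limma adjusted p of 0.0532 to 0.0923. These were chow WT replicates 2, 3 and 4, each of the 4 chow KO replicates, and replicate 1 of the KO mice on the diet. The call also ended with no detection filter (adjusted p = 0.121) and with the replicate number as a block (adjusted p = 0.0641). In bulk liver, fewer cells of a type and less RNA per cell cannot be told apart, for Smpdl3b and for each gene below.

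Of 25 tested genes of sphingolipid metabolism, 3 had a negative interaction at an unadjusted p under 0.05, against 4.91% of all genes, and none a positive one. Smpdl3b was 1 of the 3, and the median of the list was 0.06, beside 0.0094 over all genes. The other 2 were Sphk1, which makes sphingosine-1-phosphate, at -0.68 ± 0.29, and Asah1, the lysosomal acid ceramidase, at -0.46 ± 0.21. Asah1 rose in WT by 0.61 (adjusted p = 0.00679) and was at 0.14 in KO (adjusted p = 0.504). The list's median changed sign in 8 of 28 settings and was -0.07 without chow WT replicate 1, with 1 gene negative.

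**Figure D2:**
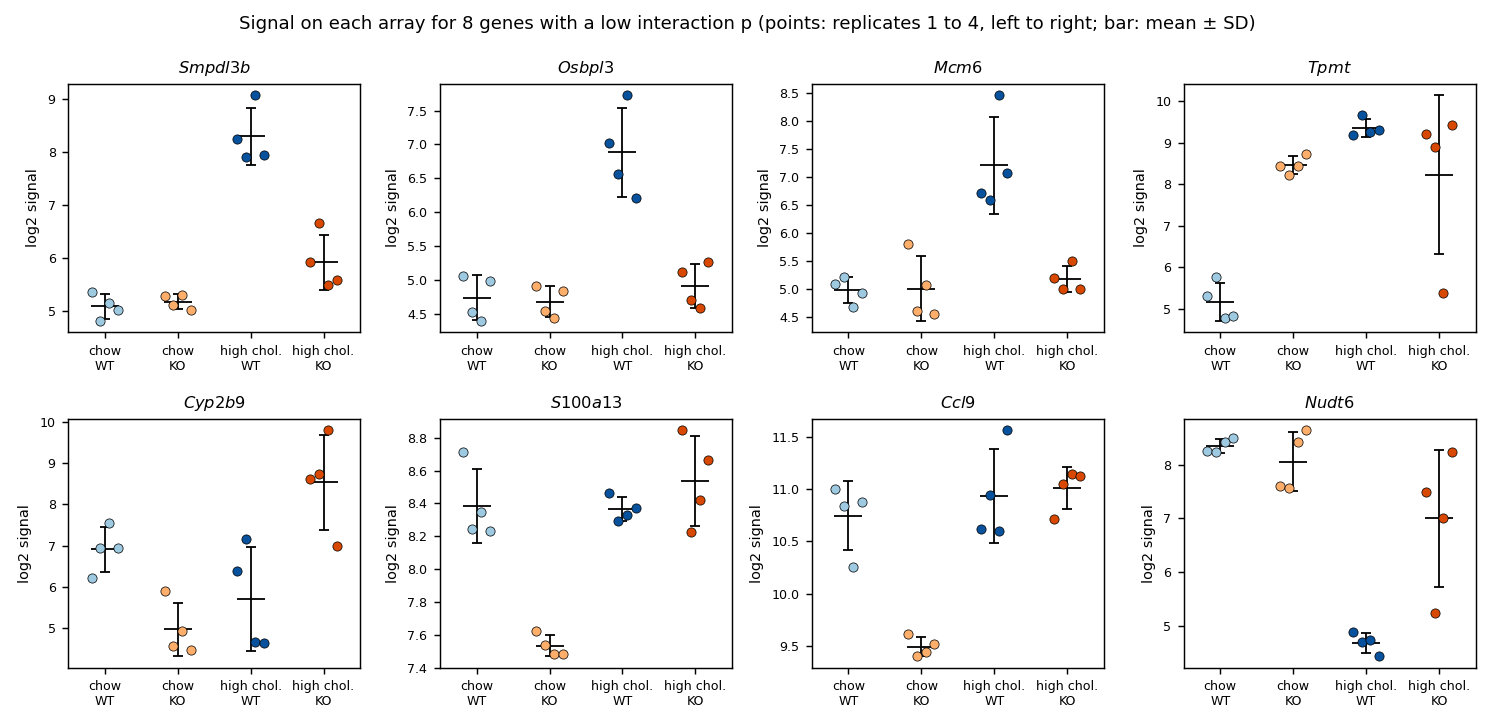
Log2 signal of 8 genes with a low interaction p on each array, by group (points are replicates 1 to 4 from left to right, bars the mean ± SD, n = 4). In the WT mice the diet raised Smpdl3b, Osbpl3 and Mcm6, with no KO array on that diet reaching the lowest WT array, while S100a13 and Ccl9 were lowest in chow KO and level among the other groups.

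Most of the 15 genes with the smallest p for a negative interaction rose with the diet in WT. Of 455 genes with a negative interaction at an unadjusted p under 0.05, 171 rose in WT and 151 fell in KO. Of the 15 with the smallest p, 13 rose and 1 fell in WT, against 13.7% and 11.8% of all genes. In KO 3 rose and 3 fell, against 15.2% and 12.4% of all genes, and 9 were not called. A larger genotype difference on the high cholesterol diet than on chow occurred for 12 of the 15, and for 4072 of all 9265 genes. These counts describe the makeup of the interaction, which is built from the same arrays. Among the 15, Osbpl3, an oxysterol-binding protein relative, read 7.02, 6.56, 7.73 and 6.21 on the high cholesterol WT arrays. On the high cholesterol KO arrays it read 5.11, 4.70, 4.58 and 5.26. All chow arrays were between 4.39 and 5.06, so both KO groups lay close to chow WT. Osbpl3 rose by 2.14 ± 0.26 in WT, where 2 of 4 chow arrays detected it. The probe was detected on no chow KO array and on 2 of 4 KO arrays of the diet, so its KO response has no measured size, and the fitted interaction of -1.91 ± 0.37 (adjusted p = 0.148) is a difference against background. Another probe gave -0.80 ± 0.37. The call passed without high cholesterol WT replicate 4 (adjusted p = 0.023).

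Cd63, a tetraspanin of lysosomes and secretory vesicles, rose in both genotypes, by 3.54 ± 0.25 in WT and 2.06 ± 0.25 in KO. It read 9.97, 10.16, 10.89 and 9.55 on the high cholesterol WT arrays against 8.29, 8.71, 8.77 and 8.87 on the KO arrays, with no overlap. The interaction of -1.48 ± 0.35 (adjusted p = 0.243) was matched by its 2 other probes, at -1.66 and -1.53. Entpd2, an ectonucleotidase that splits extracellular ATP, rose by 1.64 in WT and was at -0.02 in KO, an interaction of -1.66 ± 0.37 (adjusted p = 0.208). The linker histone gene H1fx, detected on 4 of 4 high cholesterol WT arrays and on 1 of the 12 others, gave -1.33 ± 0.28 (adjusted p = 0.208; 0.0374 without high cholesterol WT replicate 1), and another probe gave -0.71 ± 0.18. Mtmr11, a myotubularin relative detected on 4 of 4 high cholesterol WT arrays and on no KO array, gave -1.69 ± 0.37 (adjusted p = 0.208), so its KO response has no measured size.

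Some negative interactions came with chow groups that did not overlap. Tpmt, the enzyme that methylates thiopurine drugs, read 5.31, 5.76, 4.79 and 4.83 on chow WT arrays and 8.44, 8.22, 8.43 and 8.74 on chow KO arrays. With the high cholesterol diet it read 9.19, 9.67, 9.25 and 9.31 in WT and 9.21, 8.90, 5.38 and 9.43 in KO. Chow WT was low as a group, and on the high cholesterol diet KO replicate 3 alone was at that low level. The interaction of -4.41 ± 0.84 (adjusted p = 0.148) was -3.46 without that array and then passed (adjusted p = 2.12e-05). Cdk6, a kinase of the G1 phase, was detected on 4 of 4 chow KO arrays and on 1 of the 12 others, and was at least 1.24-fold lower on the diet in KO. Its fitted interaction of -1.11 ± 0.21 (adjusted p = 0.148) is set against background in chow WT and in KO on the diet. Mrvi1, a substrate of cyclic GMP kinase in smooth muscle, fell in WT by 0.45 and was detected on all 4 chow KO arrays but on no KO array of the diet, at least 1.97-fold lower. The fitted interaction was -0.88 ± 0.22 (adjusted p = 0.247; 0.0481 without high cholesterol WT replicate 4).

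**Figure D3:**
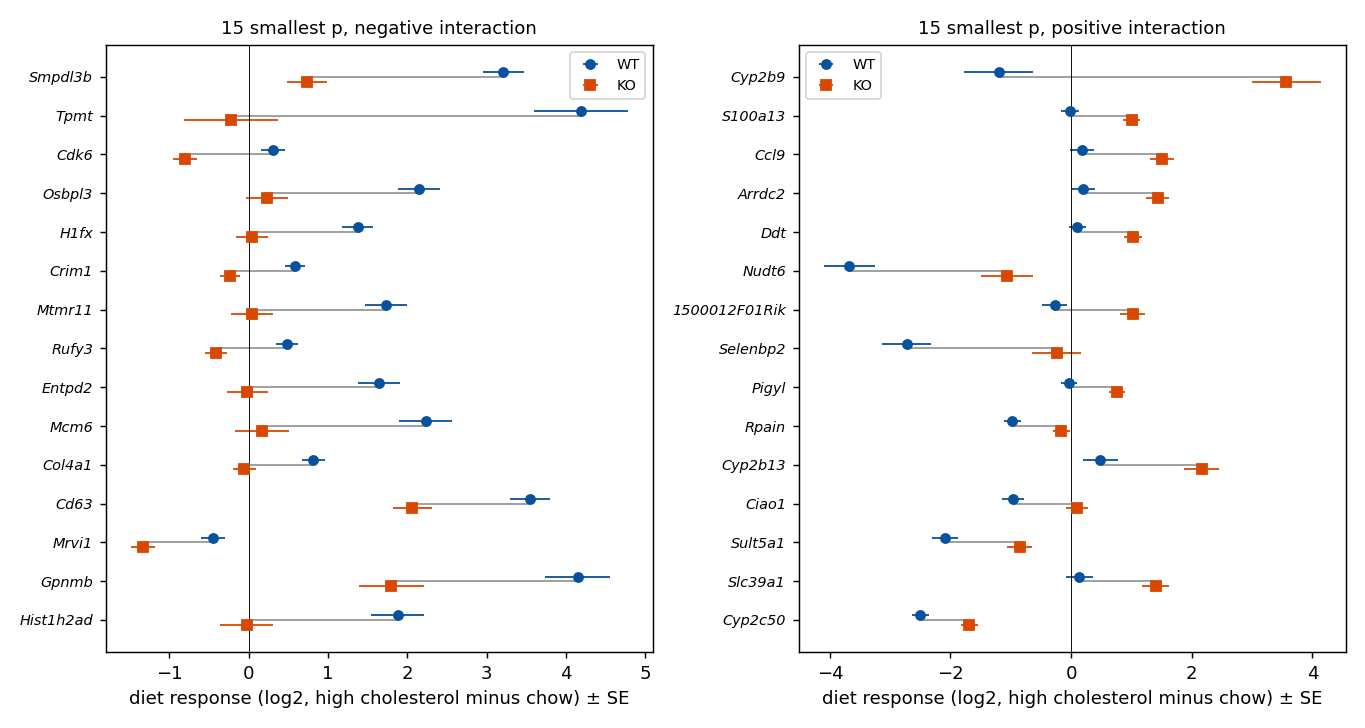
Diet response (log2, high cholesterol minus chow, with SE, n = 4 per group) in WT (blue circles) and KO (orange squares) of the 15 genes with the smallest p among negative interactions (left) and among positive ones (right), smallest p at the top. On the left 13 of the 15 rose in WT, against 13.7% of all genes. On the right 9 of the 15 rose in KO and 6 fell in WT, against 15.2% and 11.8% of all genes.

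The positive side was led by Cyp2b9, a cytochrome P450 that is higher in female than in male mouse liver. It read 6.22, 6.93, 7.55 and 6.95 in chow WT and 5.91, 4.58, 4.92 and 4.47 in chow KO. On the high cholesterol diet it read 6.38, 7.17, 4.66 and 4.63 in WT and 8.62, 8.73, 9.80 and 6.99 in KO. KO mice were thus below WT on chow and mostly above it on the diet, and WT replicates 3 and 4 on the diet lay near the background. Only 1 of 4 chow KO arrays detected it, so its fitted rise in KO, 11.8-fold (3.57 ± 0.57, adjusted p = 0.000246), is against a baseline mostly at background. In WT it was at -1.20 ± 0.57 (adjusted p = 0.132). The interaction was 4.77 ± 0.81, the widest of all genes, with a 95% interval from 3.07 to 6.47 (adjusted p = 0.0736). It ranged from 3.39 to 5.29 over all settings tried and passed in 5 of 28: with median scaling, with array weights, and without high cholesterol WT replicate 2 or 4 or high cholesterol KO replicate 4.

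Cyp2b13, its neighbour in the same P450 family, was not detected on any chow array. On the high cholesterol diet it read 5.09, 5.48, 4.60 and 4.62 in WT, detected on 2 arrays, and 7.32, 7.26, 6.57 and 5.56 in KO, detected on all 4. It was at least 3.33-fold higher than on chow in KO and at least 1.03-fold higher in WT, and the interaction was 1.68 ± 0.41 (adjusted p = 0.247; 0.0084 without high cholesterol KO replicate 4). The start regions of these 2 genes are shown because both were higher with the diet in KO, though not both in WT, and are close copies. The regions run from 250 bases before to 50 after the annotated start in RefSeq (build GRCm38.p6). They are at chr7:26173159-26173458, plus strand, and chr7:26061245-26061544, plus strand.
Cyp2b9: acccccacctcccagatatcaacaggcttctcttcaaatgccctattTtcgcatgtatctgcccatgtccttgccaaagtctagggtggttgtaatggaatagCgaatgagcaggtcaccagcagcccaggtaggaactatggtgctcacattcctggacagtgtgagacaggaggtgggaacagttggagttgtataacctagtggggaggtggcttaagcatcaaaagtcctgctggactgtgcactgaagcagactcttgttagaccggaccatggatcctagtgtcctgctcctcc
Cyp2b13: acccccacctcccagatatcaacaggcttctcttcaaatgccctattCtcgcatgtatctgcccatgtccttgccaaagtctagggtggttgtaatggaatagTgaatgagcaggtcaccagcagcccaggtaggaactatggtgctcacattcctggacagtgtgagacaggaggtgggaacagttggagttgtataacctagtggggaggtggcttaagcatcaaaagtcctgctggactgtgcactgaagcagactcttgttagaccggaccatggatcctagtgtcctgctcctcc
Capitals mark the only 2 bases that differ, T48C and C104T (the Cyp2b9 base first, positions counted from 1 at the 5′ end of the window), and 298 of 300 bases, 99.3%, are identical. Whether the probe of either gene binds the transcript of the other was not tested.

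Of 13 tested genes that are higher in female liver, 5 had a positive interaction at an unadjusted p under 0.05, against 5.53% of all genes, and 1 a negative one. Besides Cyp2b9 and Cyp2b13 they included Cyp4a14, a fatty acid hydroxylase, at 3.37 ± 1.15, and the sulfotransferase Sult1a1 at 0.61 ± 0.21, and the negative one was the neurotrophin receptor gene Ntrk2 at -1.05. The list's median interaction was 0.37, and 4 of 13 rose in KO and 1 in WT, against 15.2% and 13.7% of all genes. Its mean deviation on the high cholesterol KO arrays was 0.96, 1.10, 0.35 and -0.20, so replicate 4 lay within the WT range of -0.48 to 0.11. Without high cholesterol WT replicate 4 the median was 0.12, and without replicate 1 of that group 0.59.

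Genes higher in male liver were also tested. Their median interaction was -0.19, with 2 of 19 positive and 1 negative at an unadjusted p under 0.05, against 5.53% and 4.91% of all genes. It was -0.05 without high cholesterol KO replicate 3 and -0.32 without replicate 4 of that group. The 2 positive ones were Selenbp2, a selenium-binding protein, and Sult5a1, a sulfotransferase. Selenbp2 read 11.32, 11.17, 10.88 and 11.15 in chow WT and 8.76, 8.31, 10.40 and 10.32 in chow KO, which fell apart into 2 pairs. With the diet it fell by 2.73 ± 0.41 in WT to between 8.11 and 8.55, and was at -0.24 ± 0.41 in KO (adjusted p = 0.695), an interaction of 2.49 ± 0.58 (adjusted p = 0.233). Sult5a1 fell by 2.09 in WT and by 0.85 in KO, an interaction of 1.23 ± 0.30 (adjusted p = 0.247), and its other probe gave 0.72 ± 0.28. The negative one was Susd4, a complement regulator, at -0.87 ± 0.32, which was not detected in high cholesterol KO.

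Several other positive interactions came from a low level in chow KO. S100a13, a calcium-binding protein, read 7.62, 7.54, 7.49 and 7.48 in chow KO and between 8.22 and 8.85 on every other array. It rose in KO by 1.01 ± 0.14 and was at -0.02 ± 0.14 in WT, an interaction of 1.02 ± 0.20 (adjusted p = 0.156). Ccl9, a macrophage chemokine, read 9.61, 9.40, 9.45 and 9.52 in chow KO and 10.26 or more on every other array, and its interaction was 1.33 ± 0.28 (adjusted p = 0.208; 0.0206 without high cholesterol WT replicate 4). Both were at the WT level on the diet. Ddt, a tautomerase related to the cytokine MIF, differed: its chow groups adjoined, and with the diet the KO arrays at 10.19, 10.00, 9.92 and 10.15 exceeded all others, an interaction of 0.92 ± 0.20 (adjusted p = 0.208).

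Nudt6, a nudix hydrolase, fell with the diet in WT from 8.27, 8.23, 8.43 and 8.50 to below detection on all 4 arrays, at least 9.93-fold. In KO it read 7.61, 7.57, 8.42 and 8.64 on chow and 7.50, 5.23, 7.02 and 8.25 on the diet, a change of -1.06 ± 0.43 (adjusted p = 0.0724). The KO arrays on the diet ran from close to the WT level, in replicate 2, up to the chow level, in replicate 4. The interaction of 2.62 ± 0.60 (adjusted p = 0.233) became 3.21 without KO replicate 2 and then passed (adjusted p = 0.000957).

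Among lists with at least 10 tested genes the lowest median interaction was that of the extracellular matrix, the collagens, proteoglycans and remodelling enzymes laid down in scarring. Of 28 tested matrix and fibrosis genes, 12 had a negative interaction at an unadjusted p under 0.05, against 4.91% of all genes, and 1 a positive one; none passed after adjustment over all genes with limma. The median interaction was -0.56, and 26 of the 28 were negative. With the diet 14 rose and none fell in WT, and 5 rose and 2 fell in KO, against 13.7% and 11.8% of all genes in WT and 15.2% and 12.4% in KO. The median response was 0.67 in WT and -0.04 in KO. The mean deviation of the list was 0.48, 0.42, 0.57 and 0.22 on the high cholesterol WT arrays and -0.13, -0.0029, 0.21 and -0.14 on the KO arrays. These 2 groups adjoined but did not overlap. On chow the mean was -0.29 in WT (-0.42 to -0.16) and -0.12 in KO (-0.22 to 0.05), so KO was the higher group there. The count was between 10 and 14 without any 1 array and 15 without both replicates 3 of the high cholesterol groups, and the median stayed between -0.67 and -0.46 without any 1 array.

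Col4a1, a basement membrane collagen, was the best measured of them. It read 8.58, 8.22, 8.42 and 8.36 in chow WT and 8.36, 8.33, 8.38 and 8.56 in chow KO. The high cholesterol arrays were at 9.00, 9.22, 9.37 and 9.26 in WT and at 7.94, 8.46, 8.54 and 8.47 in KO. Only the WT arrays left the chow range upward. Col4a1 rose by 0.82 ± 0.14 in WT and was at -0.06 ± 0.14 in KO (adjusted p = 0.796), an interaction of -0.87 ± 0.20 (adjusted p = 0.235). Col1a1, the fibrillar collagen of scars, was detected on 2 of 8 chow arrays, rose by 1.30 ± 0.21 in WT to between 5.54 and 6.35, and was at 0.27 ± 0.21 in KO, an interaction of -1.02 ± 0.29 (adjusted p = 0.333). Col5a1, a regulator of fibril assembly, was at 0.54 in WT and -0.67 in KO, neither of which passed, with an interaction of -1.20 ± 0.38 (adjusted p = 0.382).

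Markers of the cells that make matrix gave values of the same sign. Of 18 tested markers of stellate cells and fibroblasts, 8 had a negative interaction at an unadjusted p under 0.05 and none a positive one, against 4.91% and 5.53% of all genes, and the median was -0.38. The count was 5 with median scaling and 5 without high cholesterol KO replicate 4. The matrix list shares 5 members with it, all 5 among these 8. Outside that overlap were Cygb, the globin of quiescent stellate cells, at -1.53 ± 0.41, and the vimentin gene Vim at -1.11 ± 0.33 (adjusted p = 0.311 and 0.343). Acta2, the smooth muscle actin of activated stellate cells, was at 0.19 in WT and -1.28 in KO, neither of which passed, with 1 chow KO array at 9.97 and the other 3 between 6.62 and 8.08. The summed signal of the stellate list had a median of 8931 intensity units in chow WT (7353 to 9717), 9964 in chow KO (9234 to 11647), 13650 in high cholesterol WT (10530 to 14486) and 10927 in high cholesterol KO (9822 to 11556). The part of cell number in the matrix result was not tested.

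Macrophage genes of the recruited and lipid-laden kind rose in both genotypes. Of 13 tested, 11 rose in WT and 9 in KO, against 13.7% and 15.2% of all genes, and 7 had a negative interaction at an unadjusted p under 0.05, against 4.91%. The median interaction was -0.48, with a median response of 1.32 in WT and 0.96 in KO. Besides Gpnmb, Spp1 and Cd9 these were Lyz2, Lgals3, Cx3cr1 and Mmp12. Lysozyme stands in the list as Lyz, Lyz2 and Lyzs, and 2 members are also in the matrix list. The summed signal of the list was 2313 to 3063 intensity units in chow WT and 2699 to 3259 in chow KO, and 6300 to 15249 against 4760 to 9671 with the diet. The defining markers Itgax, Ccr2 and Atp6v0d2 were detected on no array. The count was 5 to 7 without any 1 array.

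Gpnmb, which lipid-loaded macrophages make as a lysosomal glycoprotein, was detected on no chow array and on all high cholesterol arrays. It read 9.41, 7.76, 9.91 and 7.38 in WT and 6.79, 5.93, 6.79 and 5.76 in KO, so each WT array exceeded each KO array. It was at least 13.0-fold higher than on chow in WT and at least 2.60-fold in KO, and the interaction was -2.35 ± 0.58 (adjusted p = 0.247; 0.0481 without high cholesterol WT replicate 4). Other probes of Gpnmb, detected on no array, gave interactions of -0.32, -0.12 and 0.04. Spp1, which encodes osteopontin of macrophages, bile duct cells and scar tissue, rose by 3.13 ± 0.45 in WT and by 1.26 ± 0.45 in KO. Its interaction was -1.87 ± 0.64 (adjusted p = 0.4). Cd9, a tetraspanin, rose by 1.64 in WT and by 0.96 in KO, an interaction of -0.68 ± 0.22 (adjusted p = 0.386).

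**Figure D4:**
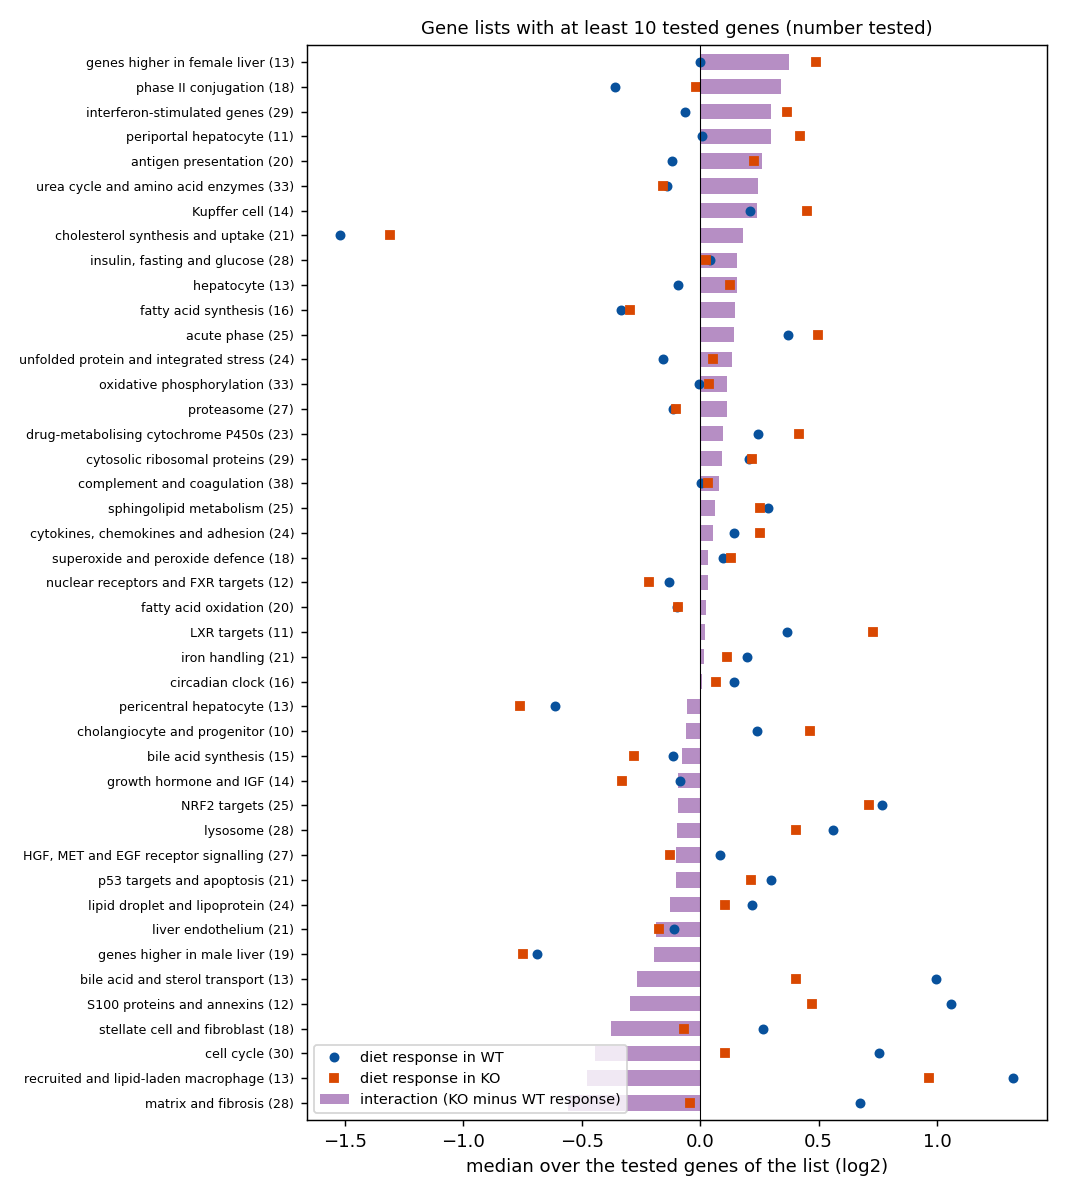
Median over the tested genes of each list with at least 10 (number in brackets) of the diet response in WT (blue circles), the diet response in KO (orange squares) and the interaction (purple bars), all in log2 units. The matrix list has the lowest median interaction, -0.56, and the female-high list the highest, 0.37, and cholesterol synthesis has low medians in both genotypes.

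Resident macrophages were covered by a separate list. The Kupffer cell list of 14 tested genes had a median interaction of 0.24. At an unadjusted p under 0.05, 1 gene was positive and 1 negative, against 5.53% and 4.91% of all genes. Mrc1, the mannose receptor, was at 0.70 ± 0.26 and Cd68, a lysosomal glycoprotein of macrophages, at -0.96 ± 0.39. The list's median was -0.09 without high cholesterol KO replicate 3, whose mean deviation was 1.09 against -0.10 to 0.28 on the other 3 arrays of its group. For interferon-stimulated genes the same array stood out at 0.77, with 1 WT array, replicate 3 of the high cholesterol diet, at 0.65. Their median interaction was 0.30, with 4 of 29 positive at an unadjusted p under 0.05, against 5.53% of all genes. The median was 0.04 without that KO array, and the count was 2 with median scaling, with the mean of probes, and without chow WT replicate 1 or 3 or chow KO replicate 1 or 4. The 4 included Irf9, a subunit of the interferon response factor, at 0.64 ± 0.18, and the GTPase gene Igtp at 1.30 ± 0.46. High cholesterol KO replicate 3 was likewise apart for acute phase genes, with a mean deviation of 1.36 against 0.09 to 0.13, and their median interaction went from 0.14 to 0.02 without it. The same array was far apart in the summed signal of the 3 tested neutrophil markers, S100a8, Csf3r and Lcn2. That sum was 10975 intensity units there and 475 to 886 on the other 3 arrays, against 534 to 795 in high cholesterol WT. It follows Lcn2, also in the acute phase list, which ran from 6.99 to 13.33 in log2 signal in high cholesterol KO. S100a8 was at 7.15 in replicate 1 of that group and between 9.28 and 9.42 on the other 3 arrays, and Csf3r was at most 6.06. The median interaction of the 3 markers was 0.50, and -0.29 without high cholesterol KO replicate 3. The defining markers Mmp8 and Ltf were detected on no array, and the part of neutrophils in these results was not tested. Saa3, an inflammatory serum amyloid, read 9.85 there and 7.47 to 7.84 on the other 3 arrays.

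**Figure D5:**
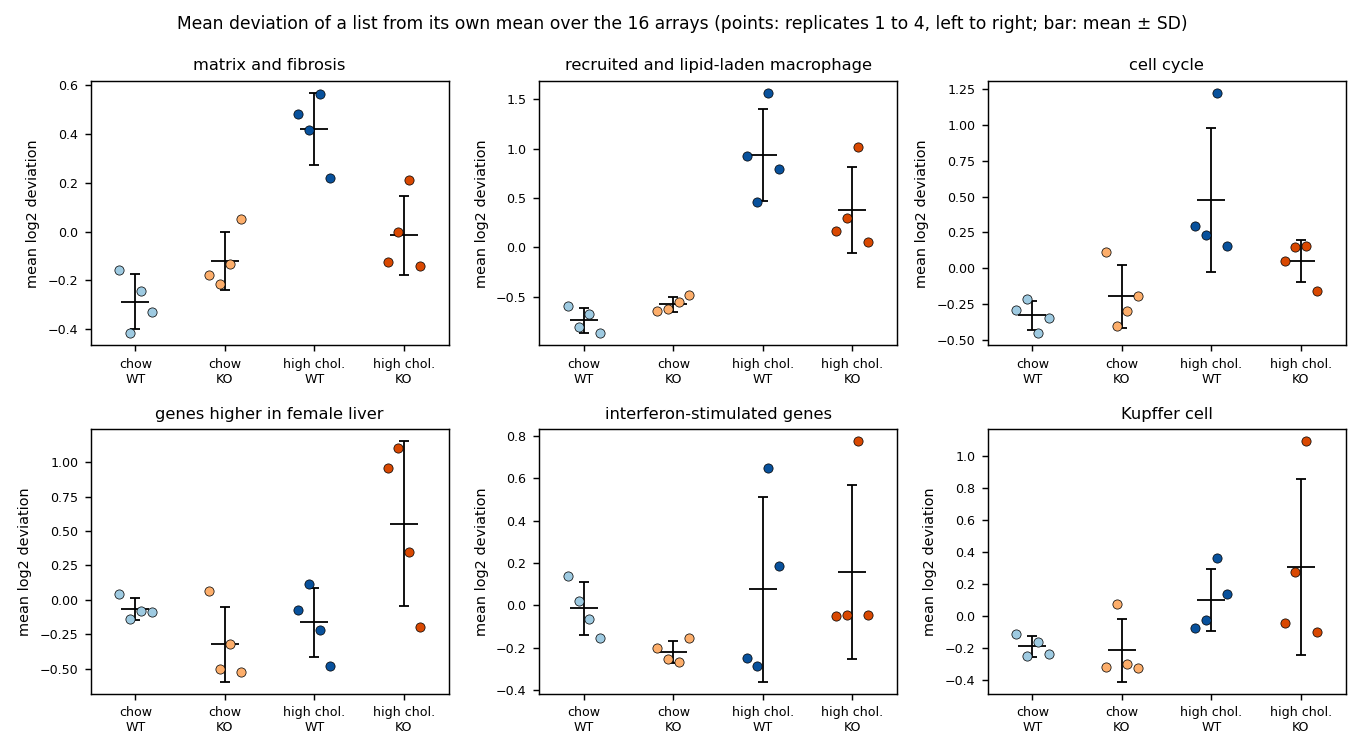
Mean deviation of each list from its own mean over the 16 arrays, in log2 units, per array and group (points are replicates 1 to 4 from left to right, bars the mean ± SD, n = 4). The matrix list separates high cholesterol WT from KO, while the cell cycle list rests more on WT replicate 3 (1.22), and the interferon and Kupffer lists on KO replicate 3 (0.77 and 1.09).

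For cell cycle genes 1 array weighed on the size. Of 30 tested, 15 rose and 1 fell in WT, against 13.7% and 11.8% of all genes. In KO 6 rose and 1 fell, where 6 is near the 15.2% of all genes that rose and 1 is below the 12.4% that fell. A negative interaction at an unadjusted p under 0.05 occurred for 6, against 4.91% of all genes, and a positive one for none. The median was -0.44, and 28 of the 30 were negative. The mean deviation was 0.29, 0.23, 1.22 and 0.15 on the high cholesterol WT arrays and 0.05, 0.15, 0.15 and -0.16 on the KO arrays. Without high cholesterol WT replicate 3 the median was -0.20 and the count 5. The count was 9 without high cholesterol WT replicate 4 and 10 without high cholesterol KO replicate 2.

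The list was led by the MCM helicase, which opens DNA at replication origins: its subunits Mcm2, Mcm4, Mcm5, Mcm6 and Mcm7 and the kinase Cdk6 were the 6, with Mcm2 at -1.10, Mcm4 at -1.38 and Mcm7 at -0.56. Mcm6 read 6.71, 6.58, 8.47 and 7.06 in high cholesterol WT and 5.18, 5.00, 5.49 and 4.99 in high cholesterol KO, with all chow arrays between 4.54 and 5.79. It rose by 2.23 ± 0.34 in WT and was at 0.17 ± 0.34 in KO, an interaction of -2.06 ± 0.47 (adjusted p = 0.233; -1.64 without high cholesterol WT replicate 3), and another probe gave -1.55 ± 0.55. Mcm5 rose by 1.46 ± 0.38 in WT and was at -0.37 ± 0.38 in KO, an interaction of -1.84 ± 0.53 (adjusted p = 0.336), where WT replicate 3 at 9.10 stood above the other 3 at 6.74 to 7.39. Their start regions in RefSeq (build GRCm38.p6) are shown because the 2 genes moved together; they are at chr1:128359656-128359955, minus strand, and chr8:75109259-75109558, plus strand.
Mcm6: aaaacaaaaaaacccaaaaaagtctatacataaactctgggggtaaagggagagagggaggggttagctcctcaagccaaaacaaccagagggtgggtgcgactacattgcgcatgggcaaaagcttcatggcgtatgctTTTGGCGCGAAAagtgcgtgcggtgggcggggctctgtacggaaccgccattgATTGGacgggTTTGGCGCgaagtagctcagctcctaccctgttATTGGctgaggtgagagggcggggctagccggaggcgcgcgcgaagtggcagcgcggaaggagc
Mcm5: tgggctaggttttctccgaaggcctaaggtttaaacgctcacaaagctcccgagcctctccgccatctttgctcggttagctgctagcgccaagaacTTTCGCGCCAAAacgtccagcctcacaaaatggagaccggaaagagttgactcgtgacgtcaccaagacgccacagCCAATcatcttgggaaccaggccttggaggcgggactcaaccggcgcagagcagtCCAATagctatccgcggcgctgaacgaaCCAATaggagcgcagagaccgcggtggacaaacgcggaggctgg
Capitals mark matches on either strand to TTTNNCGC, a form of the E2F motif, and to CCAAT, the box bound by NF-Y. The first was found at 3 places in Mcm6 and 2 in Mcm5, where 2 matches overlap each other in each gene, and in 5.2% of all 32544 such windows. CCAAT was found at 2 places in Mcm6 and 3 in Mcm5, and in 37.4% of all windows. A match describes the letters and is not a bound site.

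The cyclin D1 gene Ccnd1 rose in both genotypes, by 3.02 in WT and 2.34 in KO, with an interaction of -0.69 ± 0.36 (adjusted p = 0.523). Genes of the HGF, MET and EGF receptor pathway had a median interaction of -0.10, with 4 of 27 negative and none positive at an unadjusted p under 0.05, against 4.91% and 5.53% of all genes. Without single arrays the median ran from -0.17 (chow KO replicate 1) to -0.05 (chow KO replicate 2), and the negative count from 2 (chow WT replicate 3) to 7 (chow WT replicate 4). They included the adaptor gene Gab1, which docks on the activated receptor, at -0.60 ± 0.24, the kinase gene Map2k2 at -0.57 ± 0.21 and the phosphatase gene Dusp1 at -0.95 ± 0.42. Dusp1 rose by 1.15 in WT (adjusted p = 0.00882) and was at 0.20 in KO. The annexins Anxa2 and Anxa3, membrane-binding proteins, rose in WT by 2.21 and 1.00 and were at 0.62 and -0.14 in KO, with interactions of -1.59 ± 0.56 and -1.14 ± 0.37. Anxa2 read 12.48 in high cholesterol WT replicate 3 against 10.60 to 10.88 on the other 3 arrays.

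Drug metabolism genes had more positive than negative interactions at an unadjusted p under 0.05. At any p the cytochrome P450 list held 12 positive and 11 negative interactions. Of 23 tested cytochrome P450 genes of drug metabolism, 6 had a positive interaction at an unadjusted p under 0.05 and none a negative one, against 5.53% and 4.91% of all genes, with a median of 0.10 that was -0.04 without high cholesterol WT replicate 4 and 0.18 without high cholesterol KO replicate 3. Of the 6, 2 are also in the female-high list. Cyp2c50 fell from between 13.64 and 14.04 in chow WT to between 11.19 and 11.45, and from between 13.81 and 14.23 in chow KO to between 12.06 and 12.53. It fell by 2.50 ± 0.14 in WT and by 1.69 ± 0.14 in KO, an interaction of 0.81 ± 0.20 (adjusted p = 0.247), and its second probe gave 1.39 ± 0.38. Of 18 phase II conjugation genes, 5 had a positive and 1 a negative interaction at an unadjusted p under 0.05. The shares of all genes were 5.53% and 4.91%. Their median was 0.34, and 0.22 without high cholesterol WT replicate 3, and the positive count was 3 without chow WT replicate 1. The negative one was the glucuronosyltransferase gene Ugt1a6a at -1.18 ± 0.41. In the unfolded protein list of 24 genes, 4 were positive and none negative at an unadjusted p under 0.05, against the same shares of all genes. Chaperones of the endoplasmic reticulum were among the 4. Hspa5, the master chaperone BiP, rose in KO by 1.19 ± 0.28 and was at 0.05 ± 0.28 in WT. Its interaction was 1.14 ± 0.40 (adjusted p = 0.402), or 0.85 without high cholesterol KO replicate 3. The list's median was 0.13, and 0.06 without that array.

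No gene of sterol or bile acid handling had an interaction that passed. Of 21 cholesterol synthesis and uptake genes, 17 fell in each genotype, against 11.8% of all genes in WT and 12.4% in KO. The median response was -1.52 in WT and -1.31 in KO. At an unadjusted p under 0.05, 1 interaction was positive and 1 negative, against 5.53% and 4.91% of all genes. The negative one was Nsdhl, a sterol dehydrogenase, at -1.01 ± 0.29 (adjusted p = 0.336). Cyp7a1, whose enzyme sets the pace of bile acid production, fell by 5.22 in WT and by 5.93 in KO, and the interval of its interaction ran from -2.54 to 1.12. It was detected on 1 of 4 arrays of the diet in each genotype. Of the 8 arrays of the high cholesterol diet only 1 detected Cyp8b1, the sterol hydroxylase that forms cholic acid, and its interaction of -0.61 ± 0.20 follows the chow levels, 12.51 to 12.94 in WT and 13.23 to 13.27 in KO.

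Among transporters of bile acids and sterols the median interaction was -0.27, with 2 of 13 negative and none positive at an unadjusted p under 0.05, against 4.91% and 5.53% of all genes. The median was -0.14 without high cholesterol KO replicate 2, and the negative count ran from 1 to 3 without single arrays. Abcb4, the canalicular phospholipid floppase that protects bile ducts, read 12.64, 12.05, 13.20 and 12.26 in high cholesterol WT and 12.19, 12.37, 12.07 and 11.90 in KO, and on chow 11.21 to 11.64 in WT and 11.83 to 12.23 in KO. It rose by 1.07 ± 0.20 in WT and was at 0.11 ± 0.20 in KO, an interaction of -0.96 ± 0.28 (adjusted p = 0.357). Abcc2, the canalicular exporter of conjugates, was at -0.58 ± 0.27, and at -0.37 without high cholesterol KO replicate 3. The bile salt export pump gene Abcb11 had an interaction of -0.28 with an interval from -0.91 to 0.36, the sterol exporter gene Abcg5 -0.27 with an interval from -0.80 to 0.25, and the bile acid uptake gene Slc10a1, not detected in high cholesterol WT, 0.24 with an interval from -0.25 to 0.72.

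Oxidative stress genes responded in both genotypes. Of 25 tested NRF2 targets, 16 rose in WT and 15 in KO, against 13.7% and 15.2% of all genes. The median interaction was -0.10. At an unadjusted p under 0.05, 1 was positive and none negative, against 5.53% and 4.91% of all genes. Without high cholesterol KO replicate 4 there were 3 negative genes. The positive gene was Txn1, thioredoxin, which rose by 1.29 in KO and was at 0.54 in WT, an interaction of 0.75 ± 0.29. Gsta1, a glutathione transferase, rose by 6.03 in WT and 4.57 in KO, with KO arrays on the diet at 9.92, 12.92, 10.18 and 12.73 against 12.07 to 12.96 in WT, and the interval of its interaction ran from -3.11 to 0.20. For the heme oxygenase gene Hmox1 the interval was -0.67 to 0.45 and for the quinone reductase gene Nqo1 it was -0.42 to 0.88. S100a8, a neutrophil protein, rose by 2.98 in WT and 3.48 in KO, with an interval from -0.73 to 1.73. In the clock list of 16 genes 8 interactions were positive and 8 negative. At an unadjusted p under 0.05, 2 were positive and none negative, against 5.53% and 4.91% of all genes. These 2 were the repressors Cry2 and Per1, at 0.94 ± 0.31 and 0.98 ± 0.42 (Per1 0.64 without high cholesterol WT replicate 3). Both were lowest as group means in chow KO. The clock list's mean deviation was -0.40 in high cholesterol WT replicate 3 and -0.54 in high cholesterol KO replicate 3, the lowest of the 16 arrays.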

How the data were processed

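Liver RNA of 16 samples was hybridised to Illumina bead arrays. Signals were exported with GenomeStudio 2009.1, per the submitters' processing notes. The deposited intensity columns used were not normalized between arrays, but hold values under 0, which shows that a background had been subtracted. The deposited detection p-value gives each probe's standing against negative controls. A deposited table of quantile normalized intensity served as an alternative.

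Here intensities were background-corrected (normexp by detection p, offset 16), quantile normalized and taken to log2 in limma 3.58.1 (R 4.3.3). Filtering left 12248 of 25697 probes, each detected (p under 0.05) on 4 or more arrays, and the brightest represented its gene. Group means were fitted over all 16 arrays with empirical Bayes moderation, and p-values adjusted by Benjamini-Hochberg over 9265 genes at 0.05. For "at least" folds, an undetected group was raised on each array to the lowest signal among detected probes where its own was lower. Named genes come from the 15 genes with the smallest p in each direction, a fixed set and up to 3 genes per list; Mcm2, Mcm4, Mcm7, Ntrk2, Lyz2, Lgals3, Cx3cr1 and Mmp12 were added after their values were seen. The members and lists were chosen with earlier results of these data known. Scripts were tested on simulated data. Figures used matplotlib 3.10.9. Array number limits the precision.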

Additional observations from a re-analysis of the deposited data

Results flagged for a closer look

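The diet response of Smpdl3b differed between WT and KO by -2.47 in the test of the difference itself. In 26 of the 336 groups of 4 arrays examined (7.74%) 1 array stood far from the other 3; chance gives about 1 in 20. High cholesterol KO replicate 3 did so for 5 genes: Tpmt at 5.382, Apcs at 9.794, Saa3 at 9.845, Herpud1 at 13.16 and Csf1r at 8.633. High cholesterol WT replicate 3 did so for Herpud1 at 12.81, Anxa2 at 12.48 and Cyp4a14 at 8.179. High cholesterol KO replicate 1 did so for Col4a1 at 7.936, Sult5a1 at 6.31 and S100a8 at 7.152. In high cholesterol KO replicate 4 these were Stab2 at 5.583 and Cyp4a14 at 6.529. In the other high cholesterol WT arrays they were Rufy3 at 5.456 (replicate 2), Vim at 6.4 (replicate 4) and Cyp7a1 at 7.217 (replicate 1). On chow KO arrays they were Mtmr11 at 4.927 (replicate 3), Mcm5 at 6.186 (replicate 2) and Abcb11 at 10.15 (replicate 1). Chow WT replicate 3 stood apart for Spp1 at 7.472, Dusp1 at 8.788 and Mbl2 at 10.74. The other chow WT arrays did so for Ddt at 9.689 (replicate 2), Col1a1 at 5.177 and Ugt1a6a at 8.072 (replicate 1), and Slc10a1 at 5.364 (replicate 4). All are log2 signals.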

How the results depend on the processing

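The count of genes with a different response, 1 as reported, was 3 with median scaling, 3 with array weights, 0 with no detection filter, and 2 without replicate 3 of both high cholesterol groups, a choice made after seeing the data. It ran from 0 to 9 when single arrays were left out, with 9 without high cholesterol WT replicate 4, and was 1 in the other settings. The cause was not tested. With the replicate number as a block it was 0, with an adjusted p of 0.0641 for Smpdl3b. The numbers are not stated to pair the samples. Of 24 same-numbered pairs, 7 had correlated deviations over 0.1, in a range from -0.124 to 0.274. Between high cholesterol WT and KO the pairs were at 0.221, 0.0987, 0.259 and 0.274 for numbers 1 to 4, the 3 highest values among them. That is a hint of pairing on this diet, from the data and not from the design. Genes at an unadjusted p under 0.05 numbered 1469 with no filter and 704 to 1287 without single arrays. The diet response counts stayed within 1.5 times in every setting, at 1936 to 2479 in WT and 1961 to 2732 in KO without single arrays. With a stricter filter, higher and lower calls were 905 and 992 in WT, and 949 and 951 in KO. With median scaling the WT split was 1099 and 1315. Smpdl3b passed in 18 of 28 settings, with adjusted p from 0.000957 to 0.121. Direction turned for Susd4 on the linear intensity scale, at 35.1 intensity units, and for Hmox1, which ran from -0.28 to 0.0027 without single arrays and was positive without chow KO replicate 3. Over the named genes 2398 values kept their direction and side of the threshold, 16 gained a call and 10 lost one. Genes near background, among them Met, have only bounds.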
